A study of Mus musculus with 30 samples.

Results

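The spindle checkpoint and mitotic machinery is described here by 39 genes, chosen by name from a fixed list and read from the count table by gene identifier, out of 55401 identifiers in the table. All 39 were found, all 39 had at least 1 count in every library, and all 39 passed the filter on low counts. The cells were B-cell lymphoma lines of the mouse that carry the Eµ-Myc transgene, in which an immunoglobulin enhancer drives Myc in B cells, and that lack p19ARF, the product of the Cdkn2a locus that restrains Mdm2. The labels gave 12 DMSO control lines, 17 paclitaxel resistant lines and 1 parental line, with 1 library per line, so all groups shared the transgene and the loss of p19ARF. The paclitaxel resistant lines had been grown in separate wells through repeated pulses of a paclitaxel dose that killed most cells, each followed by recovery without drug, and the DMSO control lines had gone through the same cycles with vehicle. All lines descended from a single parental line, and whether drug was present when RNA was taken was not given in the sources used here.

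Paclitaxel binds microtubules and holds them in polymer, so that a dividing cell cannot build a working spindle. A kinetochore that is not properly attached to microtubules activates the spindle checkpoint, in which the proteins encoded by Mad1l1, Mad2l1, Bub1, Bub1b, Bub3 and Ttk hold back Cdc20, the coactivator of the anaphase-promoting complex (APC/C). When the checkpoint is satisfied, APC/C marks securin and cyclin B for destruction, separase cuts cohesin, and the sister chromatids part. Most genes of this machinery are transcribed late in the cell cycle, and in a bulk culture a smaller share of dividing cells and less RNA per cell cannot be told apart.

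RNA was measured by sequencing the 3′ ends of transcripts. Libraries held from 1053948 to 6739131 counts among DMSO control lines and from 480919 to 6682169 among paclitaxel resistant lines, and the parental library held 1851837. Of 12 B-cell marker genes, 9 were present in every library. The summed level of the B-cell markers was 3782 to 5993 CPM (counts scaled to library size) in DMSO control libraries and 2399 to 5047 CPM in paclitaxel resistant libraries. Of 7 T-cell markers none was present in every library, Cd3e and Cd4 were at 0 in all, and the summed level was 1.78 to 11.7 CPM and 0 to 26.4 CPM. Of 7 myeloid markers Itgam and Cd68 were present in every library, Adgre1 and Elane were at 0 in all, and the summed level was 6.20 to 35.6 CPM and 9.34 to 65.3 CPM. Of 7 erythroid and non-blood markers Pecam1 was present in every library, Col3a1 was at 0 in all, and the summed level was 41.7 to 71.7 CPM and 9.09 to 83.1 CPM. By the mean of 9406 genes outside the 39, 4 libraries lay nearer to the other treatment than to their own, those labelled DMSO 11, DMSO 12, Pac C1 and Pac H9. Abcb1b encodes a drug efflux pump. It was at 70.3 CPM in the library labelled DMSO 12 and at 16.04 to 45.8 CPM in the other 11 DMSO control libraries, and at 26.3 CPM in the library labelled Pac H9 against 42.2 to 258.5 CPM in the other 16 paclitaxel resistant libraries. The labels from DMSO 12 on may be displaced by one library, a doubt raised in earlier work on these data that was not tested here, and each Pac name and the name Parental could then belong to a neighbouring line. Libraries are therefore named by the labels they carry, a direction between treatments holds for those labels only, and results are also given over 27 libraries, without those labelled DMSO 12 and Pac H9. Leaving these out does not settle which line any other library came from.

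Promoters of mitotic genes often hold a CHR element, which the DREAM and MuvB complexes contact, near CCAAT boxes bound by NF-Y. RefSeq promoters, from 250 bases before to 50 bases after the start of a gene in the build GRCm38.p6, matched 34 of the 39 genes. The letters TTTGAA (CHR) occurred on either strand in 22 of the 34 (64.7%) and in 20.2% of 27025 genes with a promoter in the same table. The letters CCAAT occurred on either strand in 21 of the 34 (61.8%) and in 41.1% of all genes, and both occurred in 17 of the 34 (50%) and in 7.97% of all genes. The promoters of Cdk1 (chr10:69352863-69353162, minus strand), Plk1 (chr7:122159185-122159484, plus strand), Kif23 (chr9:61946750-61947049, minus strand) and Fzr1 (chr10:81378321-81378620, minus strand) are shown because the results below turn on these genes, which were picked after their values were seen. Capitals mark a match to either motif on either strand.
Cdk1: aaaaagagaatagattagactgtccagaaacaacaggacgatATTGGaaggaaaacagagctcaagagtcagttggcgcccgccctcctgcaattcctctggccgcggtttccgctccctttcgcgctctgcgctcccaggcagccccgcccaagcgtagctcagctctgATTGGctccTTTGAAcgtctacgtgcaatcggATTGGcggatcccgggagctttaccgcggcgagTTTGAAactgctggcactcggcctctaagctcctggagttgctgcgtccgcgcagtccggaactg
Plk1: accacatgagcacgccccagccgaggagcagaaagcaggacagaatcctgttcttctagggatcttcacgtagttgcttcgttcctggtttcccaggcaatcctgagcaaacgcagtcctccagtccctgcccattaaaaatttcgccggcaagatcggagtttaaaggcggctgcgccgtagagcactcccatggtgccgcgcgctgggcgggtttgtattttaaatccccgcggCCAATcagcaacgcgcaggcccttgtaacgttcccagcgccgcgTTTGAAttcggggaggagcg
Kif23: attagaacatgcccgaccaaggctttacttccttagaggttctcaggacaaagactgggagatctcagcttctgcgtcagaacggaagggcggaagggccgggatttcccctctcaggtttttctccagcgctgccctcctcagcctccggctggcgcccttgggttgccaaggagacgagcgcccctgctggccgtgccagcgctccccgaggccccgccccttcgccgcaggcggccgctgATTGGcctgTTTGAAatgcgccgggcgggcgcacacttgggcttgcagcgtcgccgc
Fzr1: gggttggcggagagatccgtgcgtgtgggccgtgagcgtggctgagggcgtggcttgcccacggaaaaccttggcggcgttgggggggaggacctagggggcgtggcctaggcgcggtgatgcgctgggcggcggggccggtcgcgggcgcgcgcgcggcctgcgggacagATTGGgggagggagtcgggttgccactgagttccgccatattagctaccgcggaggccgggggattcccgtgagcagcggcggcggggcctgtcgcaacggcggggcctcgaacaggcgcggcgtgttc
Those of Cdk1, Plk1 and Kif23 held both motifs, and that of Fzr1 held CCAAT without TTTGAA. A match describes letters in this window and is not a measured binding site.

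The first comparison asked whether lines that had become resistant to a drug of the spindle carried other levels of the spindle machinery than their vehicle controls. None of the 39 genes passed the threshold. Of 9445 genes tested with edgeR's quasi-likelihood test at a Benjamini-Hochberg adjusted p under 0.01, 208 were called (2.2%), 94 of them higher (0.995%) and 114 lower (1.21%) in paclitaxel resistant lines. At an unadjusted p under 0.05 the test passed 9 of the 39 genes (23.1%) and 2368 of all genes (25.1%), so the 39 genes were close to the background. At an adjusted p under 0.05, which 7.56% of all genes passed, it passed Kif23 and Incenp, both at lower levels. With edgeR's likelihood ratio test and with DESeq2, Kif23 alone of the 39 genes was called at 0.01, where 4.74% and 5.3% of all genes were, so the 39 genes were not above the background there. Over 27 libraries 9.41% of all genes passed 0.05, and Kif23, Incenp, Fzr1 and Kif11 did. The point estimates of 27 genes were lower in paclitaxel resistant lines (69.2%, against 43.4% of all genes tested) and those of 12 higher. The median log2 fold change over the 39 genes was -0.08, and over all genes tested it was 0.07.

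The size of a difference that these libraries leave room for was limited. In the fit over 29 libraries the 95% interval of the log2 fold change lay within a 2-fold difference for 36 of the 39 genes. The exceptions were Incenp, Fzr1 and Kif20a. For 30 of the 39 genes the interval covered 0. The interval of Kif23 lay only just within a 2-fold difference, reaching -0.991. Over 27 libraries the log2 fold change of Kif23 was -0.74 (SE 0.17), and the 2-fold limit does not hold for it there.

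**Figure D1:**
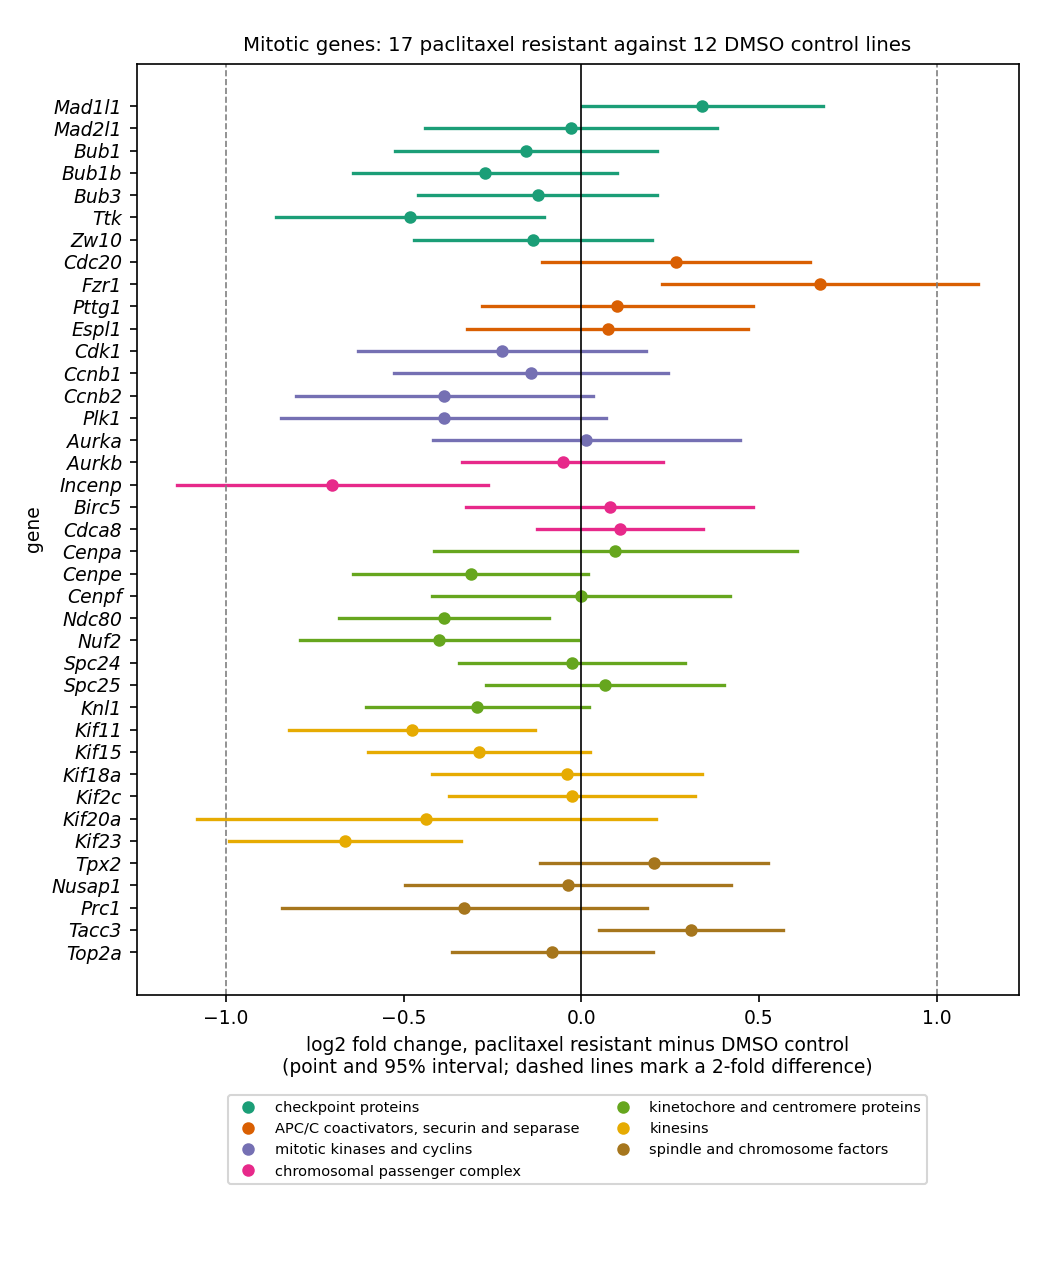
Log2 fold change of each of the 39 genes in 17 paclitaxel resistant against 12 DMSO control lines, with its 95% interval, coloured by role. The points lie between -0.70 (Incenp) and 0.67 (Fzr1), and 30 of the 39 intervals cross 0.

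Among the 7 checkpoint proteins, none passed the threshold and the median log2 fold change was -0.14. Ttk encodes the kinase Mps1, which starts checkpoint signalling at the kinetochore. It ranged from 38.7 to 89.0 CPM (median 65.5) in DMSO control libraries and from 14.6 to 70.8 CPM (median 48.8) in paclitaxel resistant libraries. The groups overlapped, with 5 of the 17 resistant lines below every DMSO control line, and the log2 fold change was -0.48 (SE 0.19, adjusted p = 0.103, edgeR). Mad1l1, whose product carries Mad2 to the unattached kinetochore, went the other way, from 27.4 to 48.0 CPM (median 38.6) in DMSO control libraries and from 20.9 to 76.6 CPM (median 52.2) in resistant ones. The log2 fold change was 0.34 (SE 0.17, adjusted p = 0.199, edgeR), and 9 of the 17 resistant lines lay above every DMSO control line.

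Levels of Mad2l1, Bub1b, Bub1 and Bub3 ranged more widely among the 17 resistant than among the 12 DMSO control lines. The SD of log2 CPM was likewise wider among resistant lines for 87.2% of all genes tested, so this is not particular to these genes. Mad2l1, whose product binds and holds Cdc20, ranged from 171 to 343 CPM (median 269) in DMSO control libraries and from 71.5 to 447 CPM (median 276) in resistant ones. Its log2 fold change was -0.03 (95% interval -0.44 to 0.38), with a sign that turned when the libraries labelled DMSO 12 and Pac H9 were left out (0.01). Bub1b encodes BubR1, a part of the complex that inhibits APC/C. It ranged from 269 to 446 CPM (median 374) and from 111 to 594 CPM (median 297), with a log2 fold change of -0.27 (interval -0.64 to 0.10). For Bub1, a kinetochore kinase, the ranges were 65.6 to 145.0 CPM (median 111) and 38.0 to 153 CPM (median 97.4), and the log2 fold change was -0.16 (interval -0.52 to 0.21). For Bub3, which brings Bub1 and BubR1 to kinetochores, they were 610 to 1173 CPM (median 851) and 336 to 1327 CPM (median 745), and the log2 fold change was -0.12 (interval -0.46 to 0.21). In each of these 4 genes the resistant lines reached both below and above the range of the DMSO control lines. Zw10, which brings dynein to kinetochores, did not range more widely. It ran from 23.6 to 50.3 CPM (median 30.3) in DMSO control libraries and from 16.3 to 46.9 CPM (median 32.1) in resistant ones, with SDs of log2 CPM of 0.41 and 0.42, and 5 of 17 resistant lines lay below every DMSO control line and none above. Its log2 fold change was -0.14 (interval -0.47 to 0.20).

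Of the 4 genes that act at the exit from mitosis, Fzr1 had the largest difference. Its product, Cdh1, is the coactivator that keeps APC/C active from late mitosis through G1. Fzr1 ranged from 13.6 to 27.8 CPM (median 20.8) in DMSO control libraries and from 6.27 to 80.1 CPM (median 31.02) in resistant ones, where 11 of 17 lay above every DMSO control line and 2 below. The highest was the library labelled Pac D7, followed by Pac C3 at 58.2 CPM, and the lowest was Pac C1, the smallest library, where Fzr1 had 3 counts. The log2 fold change was 0.67 (SE 0.22, adjusted p = 0.0534, edgeR). Over 27 libraries it was 0.73 (adjusted p = 0.0378), still short of the threshold, and 13 of 16 resistant lines then lay above every DMSO control line. Fzr1 overlaps Mfsd12 on the opposite strand, and which strand was counted was not given in the sources used here, though Mfsd12 had a median of 11 counts where Fzr1 had 71. The other genes were Cdc20, Pttg1 (securin) and Espl1 (separase), with log2 fold changes of 0.27, 0.10 and 0.07. Cdc20 overlaps Elovl1 on the opposite strand, which had a median of 925 counts where Cdc20 had 276.5, so its level is uncertain.

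The 5 mitotic kinases and cyclins gave no call, with log2 fold changes from -0.39 (Plk1) to 0.01 (Aurka). Cdk1, the kinase that drives entry into mitosis with cyclin B, ranged from 451 to 885 CPM (median 553) in DMSO control libraries and from 154 to 901 CPM (median 528) in resistant ones. The medians were close while the resistant range ran far lower, with 5 of 17 resistant lines below every DMSO control line. Its log2 fold change was -0.22 (interval -0.63 to 0.18).

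The chromosomal passenger complex corrects faulty attachments through Aurora B. Its scaffold gene Incenp had the lowest log2 fold change of all 39 genes in the fit over 29 libraries. Over 27 libraries Kif23 was as low, at -0.74. Incenp ranged from 41.7 to 171 CPM (median 77.6) in DMSO control libraries and from 22.99 to 106 CPM (median 48.2) in resistant ones. 5 of the 17 resistant lines lay below every DMSO control line and 14 lay below the DMSO control median. The log2 fold change was -0.70 (SE 0.22, adjusted p = 0.0399, edgeR), and -0.74 over 27 libraries (adjusted p = 0.0337). Over the planned fits the adjusted p of Incenp ran from 0.0199 to 0.115. The log2 fold changes of Aurkb, Birc5 (survivin) and Cdca8 (borealin) were -0.05, 0.08 and 0.11. Whether Incenp differed more than these was not tested.

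The 8 kinetochore and centromere genes gave no call and had a median log2 fold change of -0.16. Ndc80 and Nuf2 encode partners in the complex that grips the microtubule. Ndc80 ranged from 68.1 to 166 CPM (median 98.9) in DMSO control libraries and from 54.6 to 129 CPM (median 82.2) in resistant ones, with a log2 fold change of -0.39 (SE 0.15, adjusted p = 0.0944, edgeR). Nuf2 ranged from 36.4 to 67.0 CPM (median 55.9) and from 13.2 to 73.7 CPM (median 40.4), with -0.40 (SE 0.19, adjusted p = 0.191, edgeR). Each of the pair had 5 of 17 resistant lines below every DMSO control line. Spc24 and Spc25, which complete that complex, had log2 fold changes of -0.03 and 0.07. Cenpe encodes a kinesin that carries chromosomes to the spindle equator. It ranged from 77.2 to 192 CPM (median 136) and from 69.6 to 230 CPM (median 92.2), with a log2 fold change of -0.31 (SE 0.16, adjusted p = 0.228, edgeR). Its highest resistant value was that of Pac C1, the smallest library.

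All 6 kinesin genes had negative log2 fold changes, from -0.66 (Kif23) to -0.03 (Kif2c), with a median of -0.36. Those of Kif15 and Kif18a were -0.29 and -0.04. Over the fits without 1 library Kif18a and Kif2c reached 0.01 and 0.03, so their sign was not stable. None of the 6 passed the threshold. Kif23 (ENSMUSG00000032254.10, chr9:61915905-61946774, minus strand) came nearest. It encodes the kinesin of centralspindlin, which organizes the midzone between parting chromosomes for cytokinesis. Kif23 ranged from 104 to 231 CPM (median 144) in DMSO control libraries and from 45.8 to 149 CPM (median 97.1) in resistant ones, and the parental library was at 175 CPM. 10 of the 17 resistant lines lay below every DMSO control line, 15 lay below the DMSO control median, and none lay above the DMSO control range. The means were 156 ± 39.1 CPM (SD, n = 12) and 99.2 ± 31.9 CPM (SD, n = 17).

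The log2 fold change of Kif23 was -0.66 (SE 0.16), a 1.58-fold lower level, and its adjusted p of 0.0102 (edgeR) lay just outside the threshold. Over 27 libraries it was -0.74 (adjusted p = 0.00498) and passed, where 3.36% of genes were called. It also passed when any of the libraries labelled DMSO 5, DMSO 12, Pac C3, Pac D7, Pac H4 and Pac H9 was left out alone (adjusted p from 0.00561 to 0.00874). Over the 29 fits that each left out 1 library the adjusted p ran from 0.00561 to 0.0271.

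Kif11 encodes Eg5, the motor that pushes the spindle poles apart. It ranged from 43.5 to 201 CPM (median 109) in DMSO control libraries and from 51.9 to 133 CPM (median 69.1) in resistant ones. The lowest DMSO control value was that of the library labelled DMSO 12. Without it the DMSO control range began at 81.0 CPM, and 11 of the 16 resistant lines without Pac H9 lay below it. The log2 fold change was -0.48 (SE 0.17, adjusted p = 0.0782, edgeR), and -0.58 over 27 libraries (adjusted p = 0.0169). Kif20a, a kinesin of the late midzone, had the lowest mean level of the 39 genes, with 5 to 61 counts per library. It was also the most variable of them in both groups, ranging from 2.53 to 14.1 CPM (median 7.59) and from 2.00 to 22.99 CPM (median 4.40). Its highest value was 11 counts in Pac C1, the smallest library, and its lowest DMSO control value was 5 counts in DMSO 12. Its log2 fold change was -0.44 (interval -1.08 to 0.21), and it overlaps Cdc23 on the opposite strand, which had a median of 76.5 counts where Kif20a had 21.5.

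**Figure D2:**
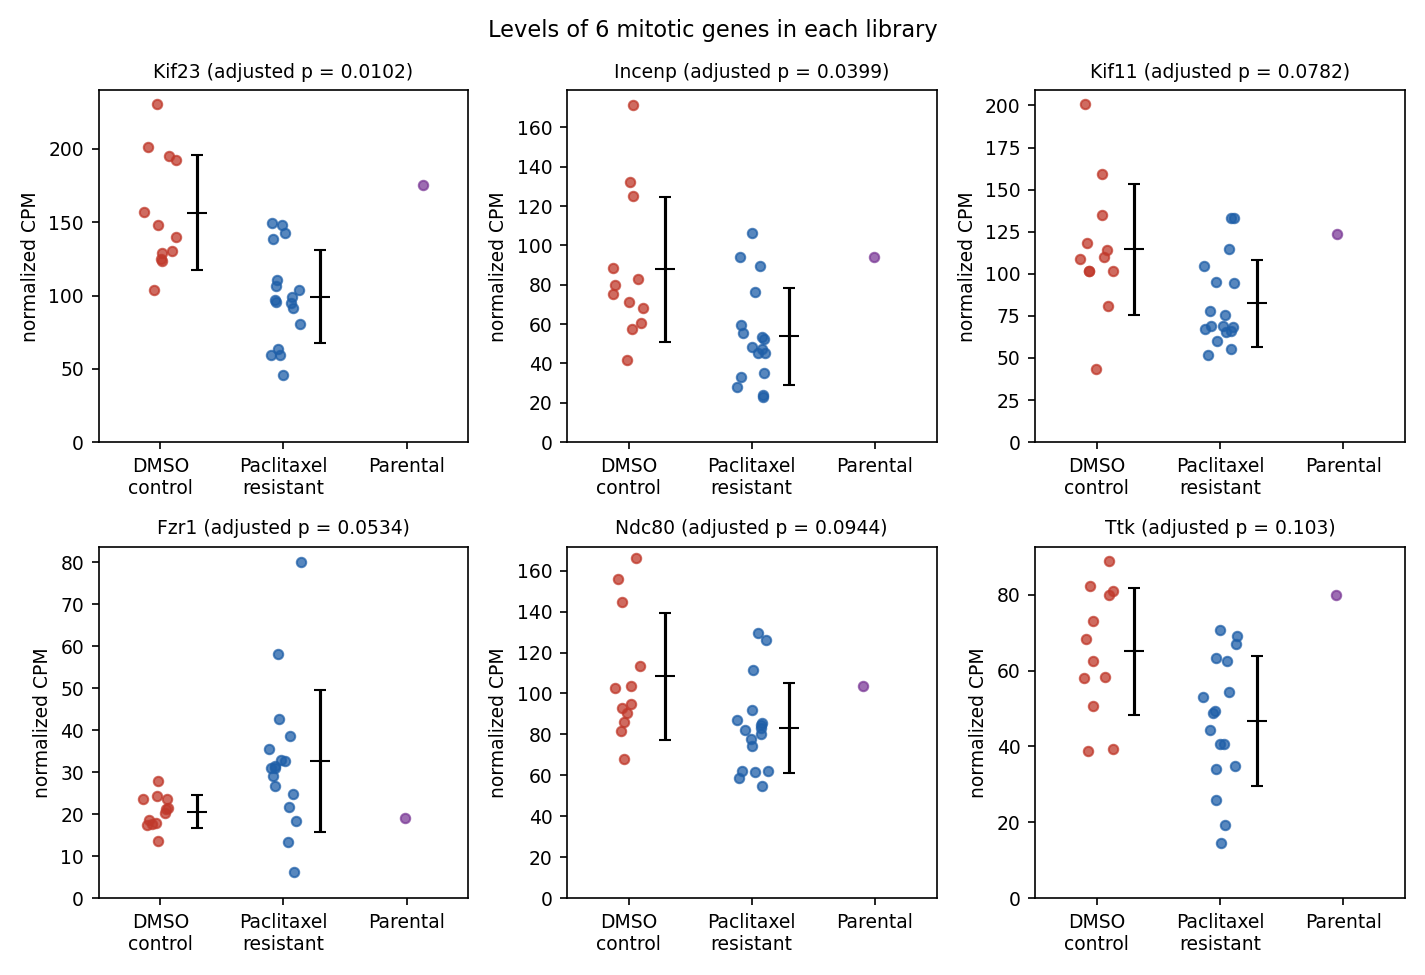
Normalized CPM of Kif23, Incenp, Kif11, Fzr1, Ndc80 and Ttk in each library, 1 point per line, with the mean and SD beside the points of each treatment and the parental line at the right. For Kif23, 10 of 17 paclitaxel resistant lines lie below every DMSO control line, and for Fzr1, 11 of 17 lie above.

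Among the 5 spindle and chromosome factors none was called. Tacc3, which stabilizes bundles of kinetochore microtubules, ranged from 80.6 to 115 CPM (median 102) in DMSO control libraries and from 76.2 to 189 CPM (median 116) in resistant ones, with 9 of 17 resistant lines above every DMSO control line. The log2 fold change was 0.31 (SE 0.13, adjusted p = 0.128, edgeR). Tacc3 overlaps Tmem129 on the opposite strand (median 110.5 counts against 366.5). Prc1, which bundles antiparallel microtubules in the midzone, ranged from 22.8 to 52.6 CPM (median 36.8) in DMSO control libraries and from 9.96 to 94.0 CPM (median 24.7) in resistant ones. The highest value was 45 counts in Pac C1, the smallest library, and the next was 49.7 CPM in Pac A6. 8 of 17 resistant lines lay below every DMSO control line, and the log2 fold change was -0.33 (interval -0.84 to 0.18).

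Of 159 other genes of mitosis and DNA replication in 6 lists, 157 were tested and 1 was called. Of all genes tested 2.2% were called, so these lists were not above the background. Over 27 libraries 2 of them were called, where 3.36% of all genes were. The gene called in the main fit was Kif20b, a kinesin of cytokinesis (chr19:34922361-34975745, plus strand). It fell by 0.75 on the log2 scale (SE 0.16, adjusted p = 0.00351, edgeR). Its range was 100 to 241 CPM (median 183) in DMSO control libraries and 53.2 to 188 CPM (median 96.1) in resistant ones, and 16 of 17 resistant lines lay below the DMSO control median. Over 27 libraries the log2 fold change was -0.85 (adjusted p = 0.000858). The call held in each of the 11 planned fits and 29 fits without 1 library. The median log2 fold changes of the lists were -0.18 for 18 APC/C subunits and regulators, -0.06 for 32 other kinetochore and centromere genes, -0.04 for 18 condensin and cohesin genes, -0.05 for 29 other kinesin, spindle, centrosome and cytokinesis genes, 0.02 for 21 mitotic regulators and transcription factors, and -0.11 for 39 DNA replication genes.

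The resistant lines also differed among themselves. The SD of log2 CPM was wider among the 17 paclitaxel resistant libraries than among the 12 DMSO control libraries for 35 of the 39 genes (89.7%), which is near the background of 87.2% of all genes tested. The median SD of the 39 genes was 0.32 in DMSO control and 0.59 in resistant libraries, and over all genes 0.46 and 0.68. The median ratio of the SDs was 2.05 for the 39 genes and 1.49 for all genes. Over 27 libraries these ratios were 2.15 and 1.57, and without libraries under 1000000 counts 2.05 and 1.39. The ratio was highest for Aurkb (3.47) and Bub1b (3.25), and it was under 1 for Ndc80, Spc24, Kif11 and Kif15.

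**Figure D3:**
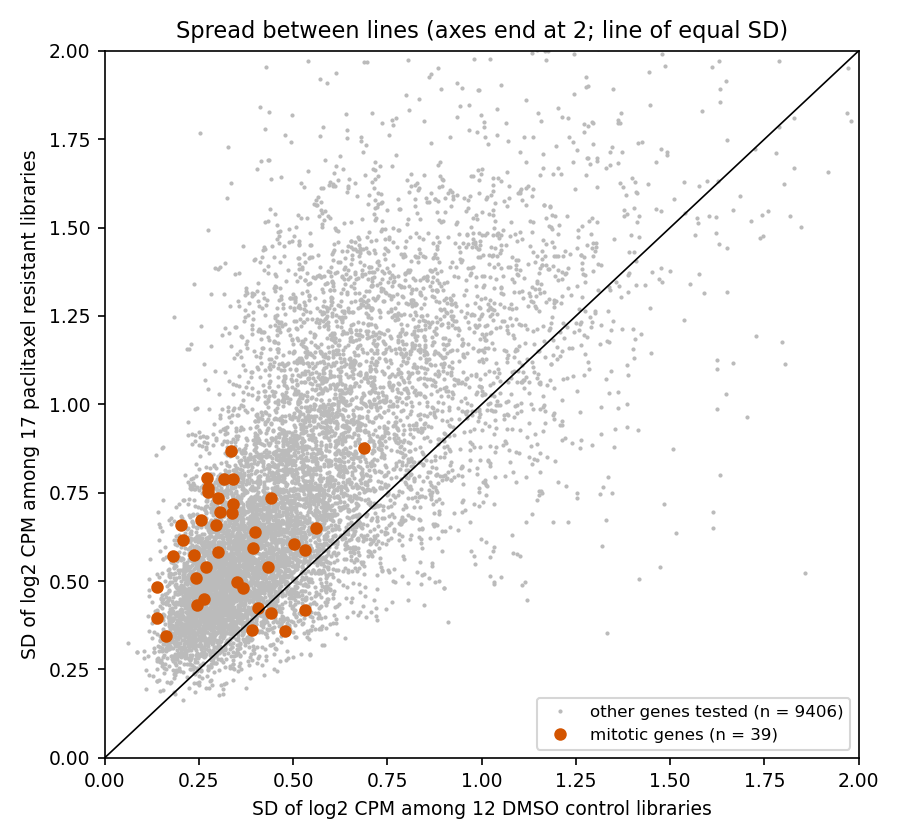
SD of log2 CPM among 17 paclitaxel resistant libraries against that among 12 DMSO control libraries for the 39 mitotic genes and the 9406 other genes tested, with a line where both are equal. 35 of the 39 mitotic genes lie above the line, as do 87.2% of all genes tested.

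Some libraries stood apart over the 39 genes. They are named here, by label, after their values were seen and are given without a test. The mean over the 39 genes of log2 CPM minus the DMSO control mean ran from -0.20 to 0.31 in DMSO control libraries, highest in DMSO 3. In resistant libraries it ran from -0.91 in Pac C11, -0.87 in Pac F10 and -0.60 in Pac G9 to 0.31 in Pac D7 and 0.47 in Pac C3, and the parental library was at 0.14. In the library labelled Pac C11, 28 of the 39 genes lay below every DMSO control library, where 19.4% of all genes did. The count was 26 in Pac F10 (22.4% of all genes), 20 in Pac G9 (16% of all genes) and 16 in Pac D4 (19% of all genes), whose mean was -0.35. Pac C1, the smallest library, had 11 of the 39 genes (28.2%) below every DMSO control library, near the 26.3% of all genes. It had 9 (23.1%) above, where 16.1% of all genes were. Among resistant libraries it held the lowest value of Incenp, Fzr1, Ttk, Mad1l1, Cdc20 and Espl1. It held the highest of Cenpe, Kif20a, Prc1, Bub1 and Kif18a. In Pac C3, 20 of the 39 genes lay above every DMSO control library, where 17.7% of all genes did, and in Pac D7 it was 13 (18.5%). In the parental library it was 5 (10.7%). DMSO control libraries stood apart too. Against the other 11, 10 of the 39 genes (25.6%) were highest in DMSO 3 and 8 (20.5%) in DMSO 8. Of all genes 4.42% and 6.9% were. In DMSO 11, 11 of the 39 genes (28.2%) were lowest and 8 (20.5%) highest. Of all genes 21% and 27.2% were, so DMSO 11 stood apart over all genes and not over these in particular. Without DMSO 12 among the controls the counts in Pac C11, Pac F10, Pac G9, Pac C3 and Pac D7 were 29, 26, 21, 21 and 13. The 39 genes took 0.385% of all counts in Pac C11, 0.461% in Pac F10 and 0.513% in Pac G9, against 0.601 to 0.895% in DMSO control libraries, so the levels were low without TMM normalization too. These 3 libraries held from 4512130 to 5315840 counts.

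Most roles were low in these 3 libraries. The mean of the 5 mitotic kinases and cyclins was -1.49 in Pac C11, -1.71 in Pac F10 and -1.04 in Pac G9 on the log2 scale relative to the DMSO control mean. Those of the checkpoint, passenger complex, kinetochore, kinesin and spindle genes lay between -1.20 and -0.54 there. That of the 4 genes of mitotic exit was 0.08, 0.26 and 0.20, over genes that went both ways. In Pac C11, Pttg1 was at -0.80 and Fzr1 at 0.67, and Cdc20, whose level is uncertain, was at 0.34, 0.46 and 0.35 in the same libraries. Plk1, the kinase of centrosome maturation and mitotic entry, was at 17.0, 12.7 and 25.2 CPM there and at 33.2 to 73.0 CPM in DMSO control libraries. The DNA replication genes, which act earlier in the cell cycle, were also low in these libraries, with means of -1.20, -1.07 and -0.66. The other lists were less low. Mitotic regulators were at -0.70, -0.76 and -0.44, and other kinetochore genes at -0.63, -0.68 and -0.51. Other kinesin and spindle genes were at -0.48, -0.54 and -0.34, and APC/C subunits at -0.30, -0.37 and -0.33. Condensin and cohesin genes were at -0.09, 0.08 and -0.06, near the DMSO control mean. In Pac D7 the DNA replication genes were at -0.62 while the mean of the 39 mitotic genes, 0.31, lay at the upper end of the DMSO control range. In both Pac C3 and Pac D7, Cenpa, the histone variant that marks centromeres, stood at 824 and 804 CPM, against 151 to 435 CPM in DMSO control libraries. The mean of the B-cell markers ran from -0.60 to 0.56 in DMSO control libraries. It was below that range in Pac C11 (-0.89), Pac G9 (-0.75) and Pac C3 (-1.34), and also in Pac A6 (-0.99), Pac C1 (-0.85), Pac D4 (-1.07), Pac D10 (-1.16) and Pac E1 (-1.09). It was within that range in Pac F10 (-0.36) and Pac D7 (-0.58). Its part in the mitotic values was not tested.

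**Figure D4:**
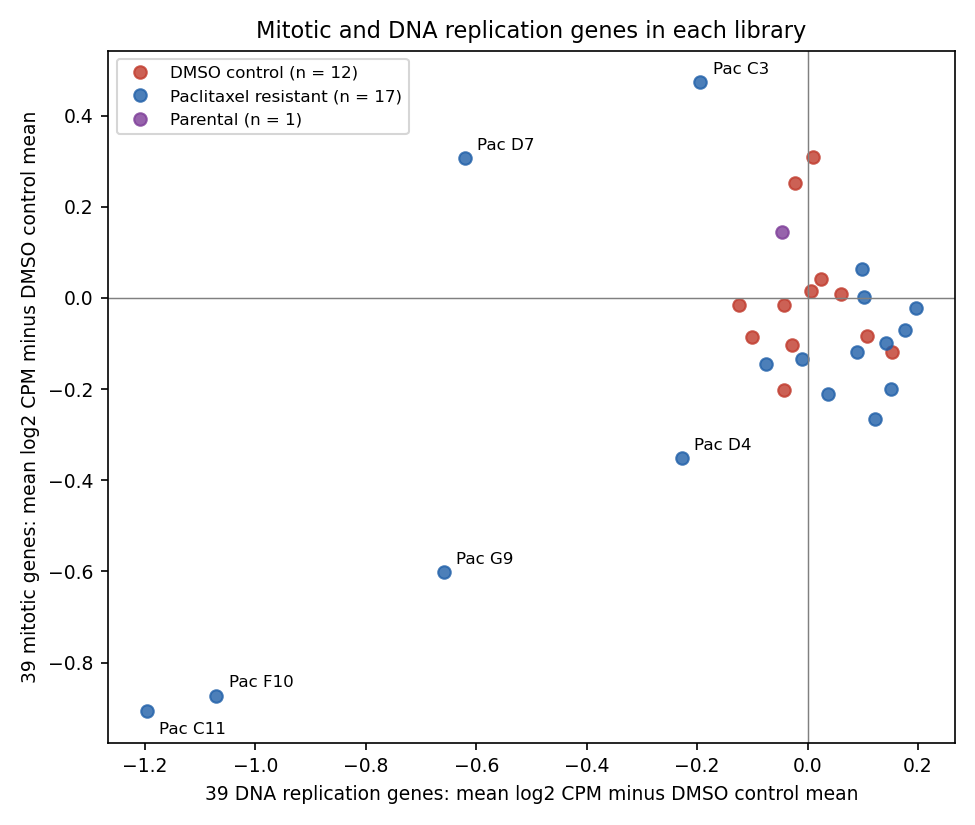
Mean log2 CPM minus the DMSO control mean over the 39 mitotic genes (vertical) and 39 DNA replication genes (horizontal), 1 point per library. Pac C11, Pac F10 and Pac G9 lie low on both axes, and Pac D7 lies at -0.62 for replication genes and 0.31 for mitotic genes.

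Across the 17 resistant lines a large part of the machinery varied with Cdk1. Cdk1 and the limits on r were chosen after the values were seen, the points share libraries and depth, and the correlations are given as a description. Pearson's r with Cdk1 was over 0.7 for 19 of the other 38 genes, and for 6.79% of all genes tested. It was 0.98 for Ccnb1, which encodes cyclin B1, 0.93 for Bub3, 0.92 for Aurka and 0.92 for Tpx2, the activator of Aurora A. Without Pac F10 and Pac C11, the libraries farthest from the median of Cdk1, 10 of the 19 were still over 0.7 and the other 9 were between 0.26 (Aurkb) and 0.69 (Plk1). For 11 genes r was under 0.3. These were Cenpf, Knl1, Cenpe, Zw10, Prc1, Fzr1, Mad1l1, Incenp, Kif11, Espl1 and Cdc20, and so included Fzr1, Incenp and Kif11, while Kif23 had an r of 0.86. Without Pac F10 and Pac C11, Cenpf rose to 0.44 and Prc1 to 0.36, while Ttk, Ndc80, Kif15 and Aurkb fell under 0.3. Pac G9 and Pac D4, where Cdk1 was also below every DMSO control library, were kept.

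Over all 741 pairs of the 39 genes the median r was 0.37 among resistant lines and 0.17 among the 12 DMSO control lines, and 0.36 and 0.20 without Pac H9 and DMSO 12. Pairs over 0.5 were 37.1% and 21.5% of these, and 10.9% and 11.0% of all gene pairs. Most of the genes were low together in Pac C11, Pac F10 and Pac G9. What these libraries added to the value among resistant lines was not tested. Among genes with a promoter the CHR letters occurred in 11 of 17 with an r with Cdk1 over 0.7, Cdk1 included. They occurred in 7 of 10 with an r under 0.3. A difference between these sets was not tested.

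**Figure D5:**
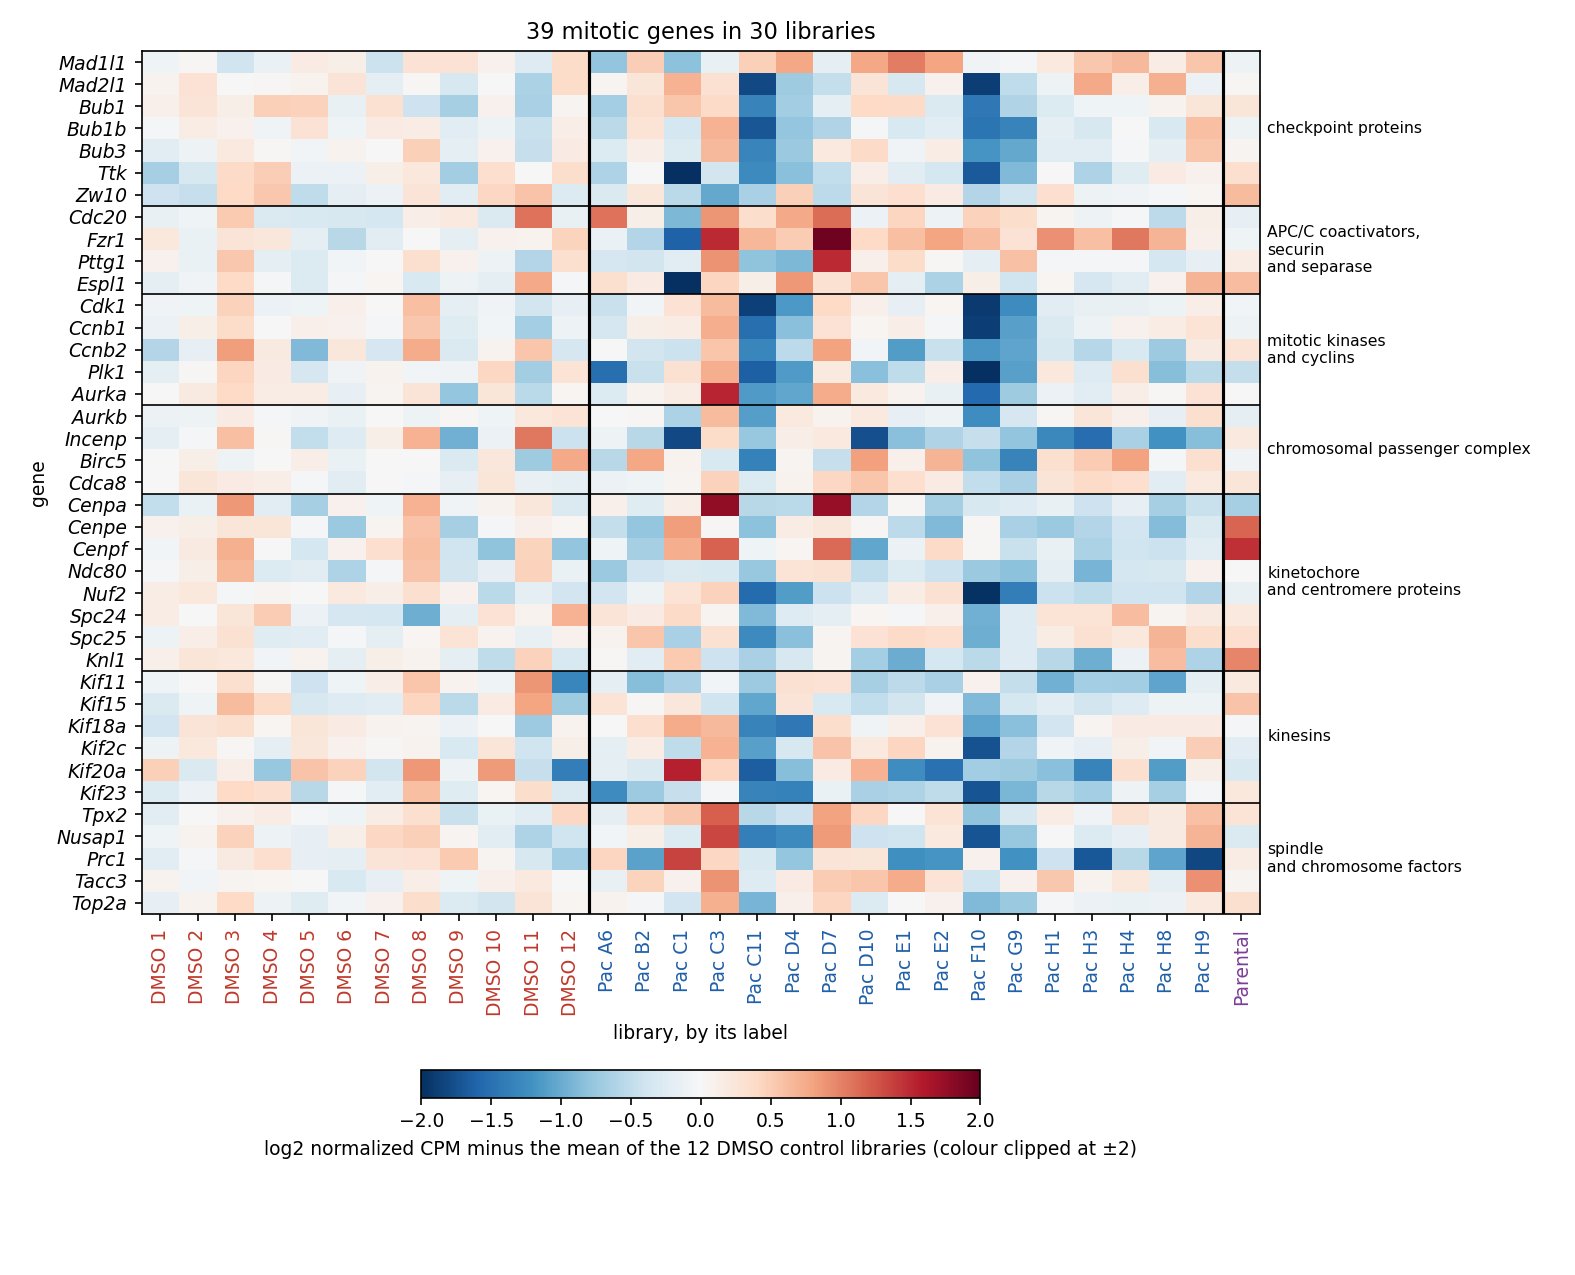
Log2 normalized CPM minus the DMSO control mean for the 39 genes (rows, by role) in 30 libraries (columns, by label), with colour clipped at 2 in both directions. The columns of Pac C11, Pac F10 and Pac G9 are low over most rows, and those of Pac C3 and Pac D7 are high for Cenpa, Fzr1 and Nusap1.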

How the data were processed

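RNA of 30 mouse lymphoma lines was made into 3′-end libraries with line barcodes and molecular identifiers, in a pair of subpools. Per the labels, alignment by the authors was to GRCm38 (mm10) by STAR 2.5.1b. They deposited whole-number counts per gene without normalization. The subpool of each line, the strand counted and whether molecular identifiers were collapsed were not given in the sources used here, so counts may not be independent molecules. Per-sample columns not used numbered 0. Symbols and positions came from the gencode annotation supplied here, which gave a symbol to 55141 of 55401 identifiers.

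Treatment was read from the labels. Phenotype groups of the resistant lines were not used, since the labels do not give them. The lines were treated as replicates, and p-values measure the spread between these lines. The 12 DMSO control and 17 paclitaxel resistant libraries were compared by the quasi-likelihood F test of edgeR 4.0.16 (R 4.3.3), after filterByExpr and with TMM factors. P-values were adjusted by Benjamini-Hochberg over all genes, and 0.01 was the threshold, with the parental library outside the fit. CPM are TMM-normalized over 30 libraries, and log2 CPM used a prior count of 2. The pair of libraries of a treatment that differed least, DMSO 6 and DMSO 9, had a mean chi-square of 6.21 across 7940 genes, above sampling noise.

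The members and lists were chosen with earlier results of these data known. Values are given in full for members under an adjusted p of 0.05, the 10 of lowest p, the 3 of largest SD in each treatment and 6 checkpoint genes (Mad1l1, Mad2l1, Bub1, Bub1b, Bub3 and Ttk), and for genes called in other lists. Plk1, Cdk1, Cenpa and Zw10 were named after their values were seen. The comparison was repeated with DESeq2 1.42.0, the likelihood ratio test of edgeR, factors by RLE, changed filters, thresholds and sets of libraries, total counts (log10) as a covariate, and libraries thinned to 480919 counts. Fits without each library in turn were added after the values were seen. On simulated data for this comparison, with 9213 genes, the test recovered 46 of 100 genes changed 2-fold and 84 of 100 changed 4-fold, with 0 false calls.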

Additional observations from a re-analysis of the deposited data

Results flagged for a closer look

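The library labelled Parental, 1 library that entered no test, lay above every DMSO control library in 5 of the 39 genes (12.8%), a share near the 10.7% of all genes that did. If the labels from DMSO 12 on are displaced by one library, this library is not the parental line. Cenpe was at 290.4 CPM there and Cenpf, a kinetochore protein, at 327.4 CPM, against highest DMSO control values of 192 and 196 CPM. Knl1, the platform for checkpoint proteins at the kinetochore, was at 85.9 CPM against 59.8 CPM, Zw10, which brings dynein to kinetochores, at 52.5 CPM against 50.3 CPM, and Spc25 at 66.8 CPM against 65.0 CPM.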

How the results depend on the processing

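No paired analysis was possible because the labels give the resistant lines well names and no replicate numbers. The number of all genes called, 208 (94 higher and 114 lower), became 448 (232 and 216) with edgeR's likelihood ratio test, 491 (267 and 224) with DESeq2, 321 (158 higher) without the libraries labelled DMSO 12 and Pac H9, 338 (168 higher) without Pac C3 and DMSO 11, 331 (147 and 184) with the parental library added, 129 (59 and 70) after thinning, and 714 (371 and 343) at an adjusted p under 0.05. With log10 total counts as a covariate 157 were called higher. Members called lower numbered 1, Kif23, under the likelihood ratio test, DESeq2, both sets of libraries left out, the covariate, thinning and the parental library added, and 2 at 0.05, and no member was called higher under any alternative. The other mitotic and replication genes called, 1, became 3 with the likelihood ratio test, 4 with DESeq2, 3 without Pac C3 and DMSO 11, 2 without DMSO 12 and Pac H9, without libraries under 1000000 counts, with the covariate, after thinning and with the parental library added, and 6 at 0.05. The causes of these changes were not tested, apart from the looser threshold of 0.05.

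Over the 29 fits that each left out 1 library, 139 to 299 genes were called, 54 to 159 higher and 77 to 147 lower, with 0 to 0 members higher, 0 to 1 lower, and 1 to 3 other mitotic and replication genes. The higher count was 54, 57, 58 and 159 without DMSO 2, DMSO 4, DMSO 10 and DMSO 11. Mad2l1 turned sign, to a log2 fold change of 0.01, without DMSO 12 and Pac H9 (0.0126) and after thinning (0.0113), and ran from -0.0929 to 0.0334 over the fits without 1 library, above 0 without DMSO 12, Pac C11, Pac D4 or Pac F10. In all, 7 members (Aurka, Cenpa, Cenpf, Mad2l1, Nusap1, Pttg1 and Spc24) changed sign in some planned fit, and over those fits their log2 fold changes ran from -0.23 (Nusap1) to 0.18 (Cenpa).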
